A study of Mus musculus with 7 samples.

Results

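The 9 genes described here encode parts of the activin and TGF-beta pathways: the activin subunit Inhba, the ligand Tgfb1, the distant family member Gdf15, the receptors Tgfbr1, Tgfbr2 and Acvr1b, the signal transducer Smad3, its inhibitor Smad7, and the matrix gene Tgfbi. They were chosen by symbol from the 26130 genes of a count table, with values of the same libraries in view, so their differences between groups are given as a description with no p-value. All 9 passed the filter on low counts, which kept 13665 genes. Messenger RNA had been sequenced from 7 libraries of mouse lung myeloid cells. The mice carried a red mScarlet reporter of Fth1, the ferritin heavy chain that stores iron, together with a GFP reporter of the lysozyme gene Lyz2, and the sorted cells were GFP+, CD11b+, Ly6C+ and Ly6G-. One group was low for Fth1-mScarlet from untreated mice (untreated Fth1-low, n = 2). The others came from mice given bacterial lipopolysaccharide (LPS, 20 μg in 50 μl, from E. coli 0111:B4) into the trachea and killed 3 days later, and were low for Fth1-mScarlet (LPS Fth1-low, n = 2) or high (LPS Fth1-high, n = 3). Both reporter alleles are therefore shared by all 3 groups, Lyz2-GFP marks monocytes, macrophages and granulocytes alike, and the labels give no age, sex or number of mice per replicate. Fth1-high cells from untreated mice were not analysed here, so LPS Fth1-high and untreated cells differ in both treatment and gate.

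Activins and TGF-betas are secreted dimers that signal through a pair of type II and a pair of type I receptor kinases, which phosphorylate Smad2 and Smad3. These join Smad4, enter the nucleus and act on target genes, among them the inhibitor Smad7. TGF-beta is secreted in a latent complex and has to be released, while activin A, the dimer of the Inhba product, is secreted active and is held in check by follistatin. In the lung both ligands are known for roles in inflammation, macrophage development and repair with scarring.

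The shallowest library, LPS Fth1-low replicate 1, held 637787 counts and the deepest, LPS Fth1-high replicate 3, held 27997007. Levels are given as CPM, read counts scaled to the size of their library, and 1 count in the shallowest library equalled 1.67 CPM. That library also had the largest share of ribosomal RNA, 19.5%, against 0.705% to 8.42% in the others, and its log2 CPM correlated with its replicate at r = 0.863, against 0.960 to 0.980 within the other groups. Markers of monocytes and macrophages were abundant in every library (summed level of 7 markers 12097 to 18573 CPM, with Lyz2 the largest term). Of these, Lyz2 (through GFP), Itgam (CD11b) and Ly6c2 (Ly6C) were sorted on, so the sum is no independent check of the cells' identity. Ly6c2 lay between 562 and 2980 CPM. Single markers of this list moved with the gate: in LPS Fth1-high cells Ccr2, the receptor that draws monocytes out of the marrow, was called lower than in LPS Fth1-low cells (-2.44 on the log2 scale) and Cd68 (1.06) and Adgre1 (1.34), both macrophage genes, higher. All 3 were called in the same direction against untreated cells, with Ly6c2 also higher there (1.78). Their part in the differences of the 9 genes was not tested. The summed level of 8 neutrophil markers was 374 to 692 CPM, and Ly6g, the marker sorted against, did not exceed 0.0932 CPM. S100a9 and Mmp8 were called lower in LPS Fth1-high than in LPS Fth1-low cells, Mmp8 also lower than in untreated cells, and S100a8 was called higher in both LPS groups than in untreated cells (3.10 for the low gate and 2.71 for the high gate). The 8 alveolar macrophage markers summed to 486 to 5910.4 CPM, mostly Chil3. Chil3 and Ear2 were called lower between the LPS gates, Fabp4 lower in both LPS groups against untreated cells, and Ear2 lower and Marco higher in LPS Fth1-high against untreated cells. Of 17 epithelial, endothelial and fibroblast markers 16 were tested, and edgeR and limma-voom called 0 in any comparison. At an unadjusted p below 0.05 edgeR gave 0, 0 and 3, and DESeq2 called 0, 0 and 2, the last against untreated cells in the LPS Fth1-high group. Epithelial markers reached 777 CPM in untreated replicate 1 and lay at 2.98 to 116 CPM elsewhere, endothelial markers lay at 34.5 to 276 CPM, and platelet markers at 4.38 to 16.5 CPM. T, NK and B cell markers summed to 6.38 to 78.0 CPM. In LPS Fth1-high against untreated cells 2 platelet markers (Ppbp and Itga2b) and 2 lymphoid markers (Klrb1c and Cd79b) were called lower. In such bulk samples fewer cells of a type and less RNA per cell cannot be told apart.

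The starts of 3 of the genes are shown because these genes stood farthest apart between the groups. Each sequence runs 5′ to 3′ from 250 bases before to 50 bases after the RefSeq transcript start on GRCm38.p6, all on the plus strand, at chr13:16011601-16011900 for Inhba, chr7:25686752-25687051 for Tgfb1 and chr13:56609336-56609635 for Tgfbi. Capitals mark the Smad core site CAGAC on either strand.
Inhba: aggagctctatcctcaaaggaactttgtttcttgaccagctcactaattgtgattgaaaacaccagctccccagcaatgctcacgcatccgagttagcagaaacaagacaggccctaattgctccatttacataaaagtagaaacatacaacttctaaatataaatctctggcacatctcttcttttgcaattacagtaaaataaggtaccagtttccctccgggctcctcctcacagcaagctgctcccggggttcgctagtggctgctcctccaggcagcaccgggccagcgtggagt
Tgfb1: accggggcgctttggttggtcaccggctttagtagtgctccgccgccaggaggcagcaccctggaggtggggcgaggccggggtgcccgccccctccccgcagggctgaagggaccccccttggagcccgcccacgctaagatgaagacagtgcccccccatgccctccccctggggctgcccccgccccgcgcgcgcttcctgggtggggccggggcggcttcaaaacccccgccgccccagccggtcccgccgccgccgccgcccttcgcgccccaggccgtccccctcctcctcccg
Tgfbi: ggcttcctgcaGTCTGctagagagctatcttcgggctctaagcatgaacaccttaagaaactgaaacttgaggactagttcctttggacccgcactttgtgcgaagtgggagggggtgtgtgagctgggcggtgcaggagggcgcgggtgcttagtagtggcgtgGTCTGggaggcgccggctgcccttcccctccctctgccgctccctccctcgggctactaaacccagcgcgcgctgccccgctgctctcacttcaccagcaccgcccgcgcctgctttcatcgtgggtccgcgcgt

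The Tgfbi window held the core site at 2 places, at positions -239 and -85 from the transcript start, both on the minus strand. The Inhba and Tgfb1 windows held none. Of 32851 windows of the same length over all genes, 49.6% held the core site at least once. The full Smad palindrome GTCTAGAC (in 0.213% of windows), the AP-1 site TGANTCA (7.81%), the cyclic AMP response element TGACGTCA (1.79%) and the C/EBP-ATF element TGATGNAA (3.97%), each searched on both strands and none containing CAGAC, were in none of the 10 windows of the 8 genes that had one. The 3 windows differed in base composition. The Inhba window was 47.7% G and C with 7 CpG pairs, below the median over all windows of 52.7% and equal to the median of 7 pairs. That of Tgfb1 was 77.0% with 30 pairs, and 97.6% of all windows were lower in G and C. That of Tgfbi was 63.3% with 22 pairs.

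Inhba, on chromosome 13 (mm10, 16011851 to 16031621, plus strand), encodes the subunit that pairs to form activin A. It had no count in either untreated library, 20.1 and 42.4 CPM in LPS Fth1-low replicates 1 and 2, and 95.0, 149 and 169.8 CPM in LPS Fth1-high replicates 1, 2 and 3. The groups therefore did not overlap, and every LPS Fth1-high library was above both LPS Fth1-low libraries. A floor of 3 counts over both untreated libraries, 0.0864 CPM with the scaled library sizes, put the mean of LPS Fth1-low cells at least 362-fold higher and that of LPS Fth1-high cells at least 1596-fold higher than untreated cells, counting error only. Between the gates of treated mice the fitted difference was 1.98 ± 0.36 on the log2 scale (SE, n = 3 and 2), 3.93-fold higher in Fth1-high cells. It was 1.68 without LPS Fth1-low replicate 1, whose value rested on 12 counts, and 2.79 without replicate 2.

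Tgfb1, on chromosome 7 (25687002 to 25705077, plus strand), encodes the TGF-beta made by most leukocytes. It ran the other way, with 958 and 1028 CPM in untreated cells, 568 and 594 CPM in LPS Fth1-low cells and 291, 280.3 and 337 CPM in LPS Fth1-high cells. The 3 groups did not overlap at any step, and each library lay close to its replicates. The differences were -0.94 ± 0.19 between the LPS gates, -0.77 ± 0.22 for LPS Fth1-low against untreated and -1.71 ± 0.19 for LPS Fth1-high against untreated (log2 ± SE). Over all alternatives of the analysis the first of these lay between -1.03 and -0.90. Set against each other within a library, Inhba had 0 counts per 1000 Tgfb1 counts in both untreated libraries. It had 35.4 and 71.4 in LPS Fth1-low cells, and 327, 530.1 and 504 in LPS Fth1-high cells.

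The summed level of 6 dendritic cell markers had the same order of groups as Tgfb1. It was 103 to 104 CPM in untreated, 70.3 to 71.8 CPM in LPS Fth1-low and 11.2 to 17.3 CPM in LPS Fth1-high cells. Flt3, the receptor that dendritic cell precursors need, and Cd209a, a lectin of monocyte-derived dendritic cells, were called lower in LPS Fth1-high than in LPS Fth1-low cells, and Cd209a also in LPS Fth1-low than in untreated cells. Both were also called lower in LPS Fth1-high than in untreated cells. The other 4 were called in no comparison. Of these the mean level in LPS Fth1-low cells was above that in untreated cells for Clec9a (8.66 against 3.89 CPM), Xcr1 (4.88 against 0.733) and Ccr7 (26.8 against 7.33), while Flt3, Cd209a and Zbtb46 followed the order of the sum in their group means, and the single marker at 0 in any library was Zbtb46, in LPS Fth1-low replicate 1. Their part in the Tgfb1 difference was not tested.

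Gdf15, on chromosome 8 (70629393 to 70632456, minus strand), encodes a stress-induced ligand that signals through a receptor of the hindbrain. It was scarce in every library, with 1.67 and 1.31 CPM in untreated, 0 and 2.31 CPM in LPS Fth1-low and 2.39, 1.99 and 4.14 CPM in LPS Fth1-high cells. The LPS groups overlapped, and the 0 came from the shallowest library, in which 3 counts equal 5.02 CPM. At this depth no difference was detectable between LPS Fth1-high and LPS Fth1-low cells (0.62 ± 0.70) or between LPS Fth1-low and untreated cells (0.30 ± 0.75), although the mean of LPS Fth1-low cells, 1.16 CPM, was below that of untreated cells, 1.49 CPM. Without LPS Fth1-low replicate 2, which leaves the library with no count as the group, the 2 values became 8.62 and -7.70. Every LPS Fth1-high library was above both untreated libraries, with a difference of 0.93 ± 0.64 that was not called.

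**Figure D1:**
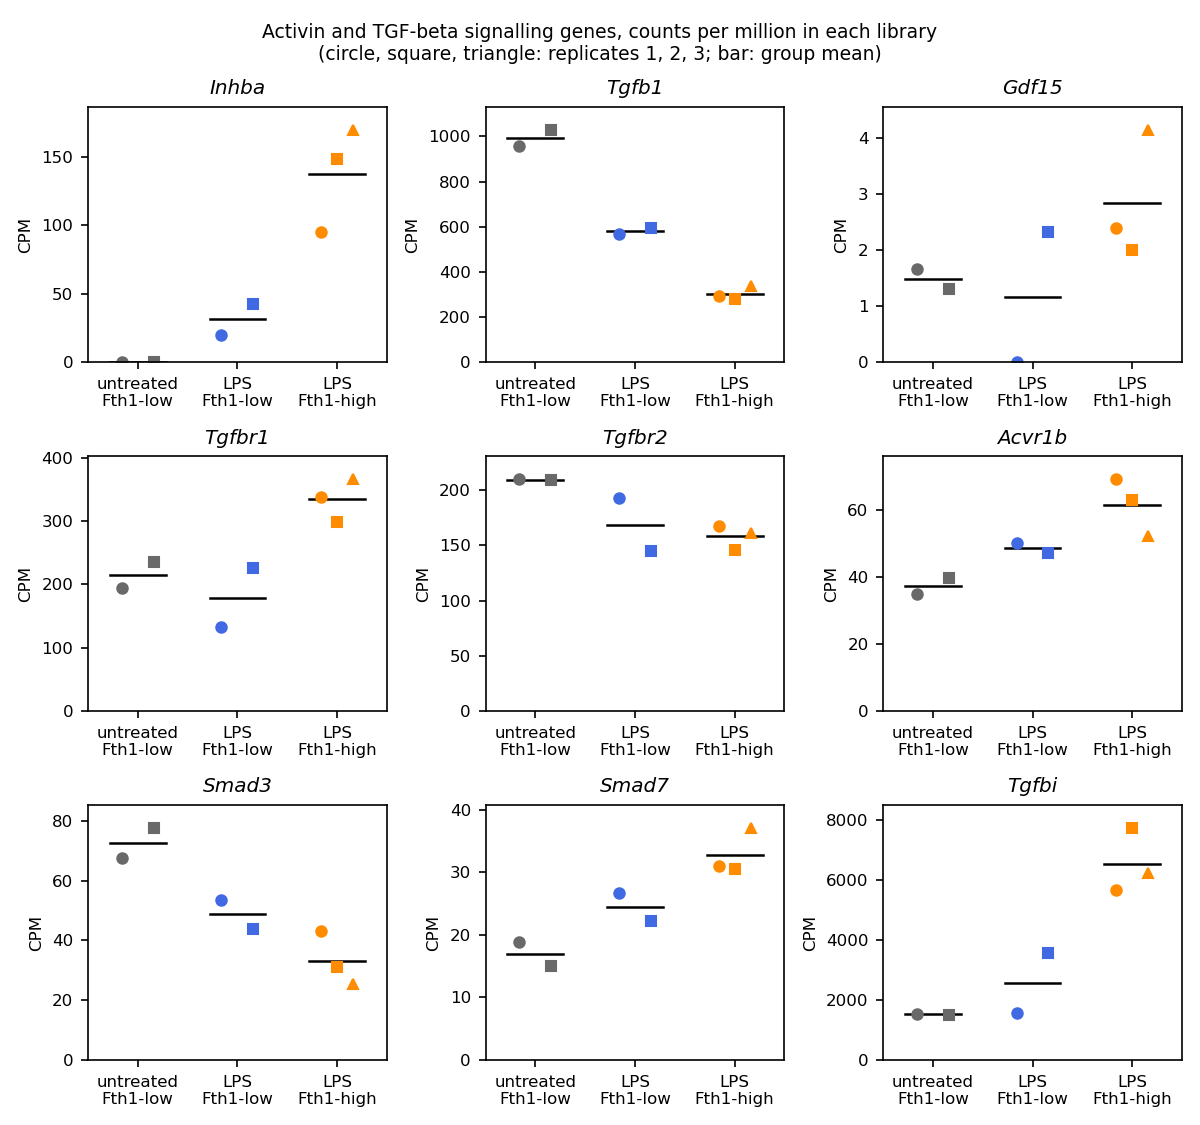
CPM of the 9 genes (vertical axes, linear, from 0) in each library of the 3 groups, with a symbol for the replicate number and a bar at the group mean. Inhba went from 0 in untreated to 95.0 to 169.8 CPM in LPS Fth1-high cells, while Tgfb1 went from 958 and 1028 down to 280.3 to 337 CPM.

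The receptors did not move as 1 block. Tgfbr1, the type I receptor of TGF-beta on chromosome 4 (47353222 to 47414931, plus strand), had 195 and 236 CPM in untreated cells, 132 and 225 CPM in LPS Fth1-low cells and 339, 299 and 366 CPM in LPS Fth1-high cells. All 3 LPS Fth1-high libraries were above the 4 others, while untreated and LPS Fth1-low cells overlapped. The difference between the LPS gates was 0.87 ± 0.26, and it was 0.55 without LPS Fth1-low replicate 1 and 1.35 without replicate 2. LPS Fth1-low cells differed from untreated cells by -0.23 ± 0.27, and this sign turned without LPS Fth1-low replicate 1. Acvr1b, the type I receptor that activin uses, on chromosome 15 (101174067 to 101213684, plus strand), had 34.9 and 39.7 CPM in untreated, 50.2 and 47.2 CPM in LPS Fth1-low and 69.3, 63.1 and 52.3 CPM in LPS Fth1-high cells. These groups did not overlap, although the steps were small, with 0.35 ± 0.21 between the LPS gates, 0.37 ± 0.22 for LPS Fth1-low and 0.72 ± 0.19 for LPS Fth1-high against untreated cells. Tgfbr2, the type II receptor that binds TGF-beta first, on chromosome 9 (116084293 to 116175360, minus strand), had 210.0 and 209 CPM in untreated, 193 and 145 CPM in LPS Fth1-low and 167, 146 and 162 CPM in LPS Fth1-high cells. The LPS gates overlapped fully and differed by -0.07 ± 0.20, which became 0.11 without LPS Fth1-low replicate 1. LPS Fth1-high cells were -0.41 ± 0.19 from untreated cells.

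Smad3, which carries the signal of both ligands to the nucleus, lies on chromosome 9 (63646767 to 63757994, minus strand). It had 67.5 and 77.6 CPM in untreated, 53.6 and 43.8 CPM in LPS Fth1-low and 43.2, 31.3 and 25.4 CPM in LPS Fth1-high cells. No group overlapped another, but LPS Fth1-low replicate 2 and LPS Fth1-high replicate 1 lay next to each other. The differences were -0.51 ± 0.26 between the LPS gates, -0.62 ± 0.28 for LPS Fth1-low and -1.13 ± 0.24 for LPS Fth1-high against untreated cells. Smad7 blocks the receptors and is itself a target of the pathway. It had 18.9 and 15.1 CPM in untreated, 26.8 and 22.2 CPM in LPS Fth1-low and 31.1, 30.5 and 37.1 CPM in LPS Fth1-high cells, again without overlap and in the opposite direction to Smad3. The differences were 0.48 ± 0.22, 0.47 ± 0.24 and 0.95 ± 0.20 in the same order. The first became -0.04 when all libraries were thinned to the depth of the shallowest.

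Tgfbi, on chromosome 13 (56609523 to 56639562, plus strand), encodes a secreted matrix protein named for its induction by TGF-beta and was the most abundant of the 9 per length in every group. It had 1544 and 1495 CPM in untreated cells, 1550.2 and 3574 CPM in LPS Fth1-low cells and 5665, 7714 and 6225 CPM in LPS Fth1-high cells. All LPS Fth1-high libraries were above the others, and the 2 LPS Fth1-low libraries stood apart, replicate 1 next to the untreated cells. The difference between the LPS gates was 1.35 ± 0.36, and it ranged from 0.85 without LPS Fth1-low replicate 1 to 2.08 without replicate 2. LPS Fth1-low cells were 0.76 ± 0.38 above untreated cells, and this value was 1.27 without replicate 1 and 0.01 without replicate 2. LPS Fth1-high cells were 2.10 ± 0.38 above untreated cells. Per Tgfb1 count, Tgfbi had 1.61 and 1.45 counts in untreated, 2.73 and 6.02 in LPS Fth1-low and 19.5, 27.5 and 18.5 in LPS Fth1-high libraries. As with the ratio of Inhba to Tgfb1, these counts are not divided by length, so they can be read across libraries only.

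**Figure D2:**
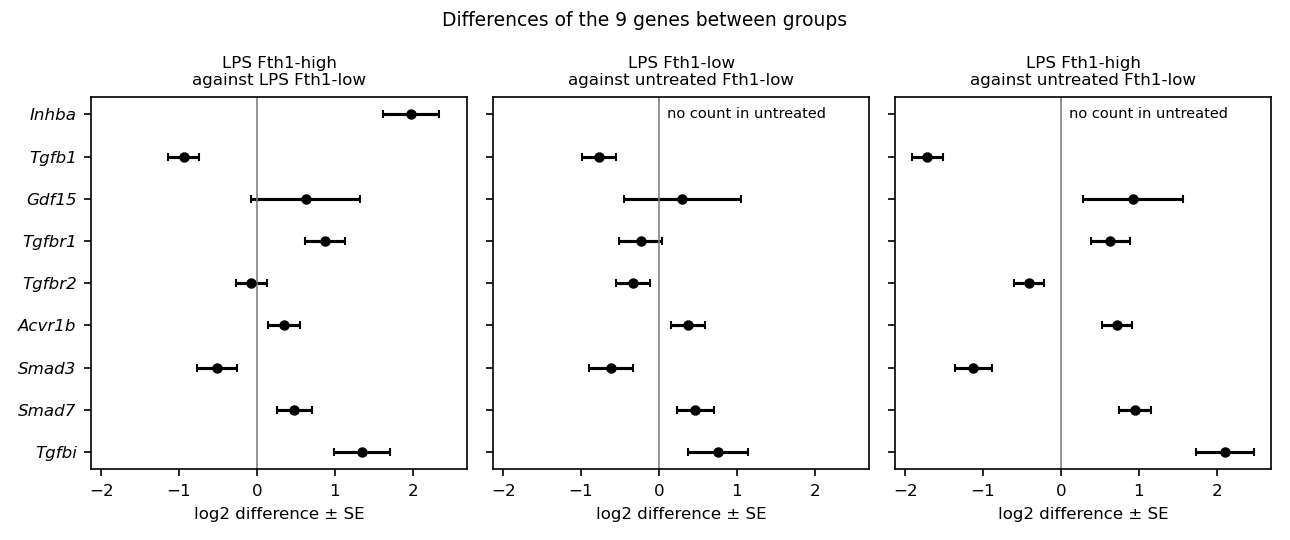
Fitted log2 differences of the 9 genes with their SE (horizontal axis) in the 3 comparisons, 1 panel each. Inhba and Tgfbi lay farthest to the right between the LPS gates (1.98 and 1.35) and Tgfb1 farthest to the left (-0.94), and Inhba has no point against untreated cells, where it had no count.

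In the fit across all genes a gene was called when its adjusted p was below 0.05. Of the 9, Inhba was called higher and Tgfb1 lower between the LPS gates, where 3.68% of all tested genes were called higher and 4.57% lower. For LPS Fth1-low against untreated cells 1 was called higher (Inhba) and 0 lower, where 2.99% and 0.629% of all genes were called. For LPS Fth1-high against untreated cells 4 were called higher (Inhba, Acvr1b, Smad7 and Tgfbi) and 2 lower (Tgfb1 and Smad3), where 12.4% and 11.9% of all genes were called. Groups did not overlap for 7, 7 and 9 of the 9 genes in the 3 comparisons, and for 41.3%, 39.5% and 58.1% of all tested genes. Because the genes were chosen on these values, nothing is read from these counts. The last comparison shares its LPS Fth1-high libraries with the first and its untreated libraries with the second. The median difference of the 9 was 0.48, 0.30 and 0.72, beside 0.04, -0.05 and 0.03 over all genes.

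Divided by exon length, the levels could be set against each other. In untreated cells the order by CPM per kilobase was Tgfbi (403), Tgfb1 (197), Tgfbr1 (33.0), Tgfbr2 (25.6), Smad3 (13.1), Acvr1b (8.44), Smad7 (3.76), Gdf15 (0.802) and Inhba (0), and no neighbours in that order overlapped between libraries. In LPS Fth1-high cells it was Tgfbi (1733), Tgfb1 (60.1), Tgfbr1 (51.2), Inhba (21.6), Tgfbr2 (19.3), Acvr1b (13.9), Smad7 (7.27), Smad3 (6.01) and Gdf15 (1.53). Inhba had passed from rank 9 to rank 4, with a library range (14.9 to 26.6) that held that of the next in order, Tgfbr2 (17.8 to 20.4), and Smad7 stood before Smad3 with overlapping ranges. Tgfb1 and Tgfbr1 also overlapped there, at 55.6 to 66.9 and 45.7 to 56.1. In LPS Fth1-low cells Inhba stood at 4.89 and rank 8. The order was the same in every group when the longest transcript was used as length.

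Among 8091 other genes averaging 10 CPM or more, those most like Inhba over the 7 libraries in log2 CPM were Cxcl16 (r = 0.9997), a chemokine held on the cell surface, Mmp14 (0.999), a membrane-bound matrix protease, and Arg2 (0.998), a mitochondrial arginase. Those most like Tgfb1 were Cd209a, Camkk2 and Mical1 (r = 0.997 to 0.998), and those most like Tgfbi were Zfp993, Slc11a2, an iron and metal transporter, and Ncf1, a subunit of the phagocyte oxidase (0.995 to 0.996). Such values were common: 409 genes reached a correlation above 0.9 with Inhba, 695 with Tgfb1 and 610 with Tgfbi, but only 19 with Tgfbr2, whose nearest was Fam210b (0.959). The libraries share their group and depth, so these are descriptions of 7 points. Among the 9 themselves, Inhba and Tgfb1 had r = -0.92, Inhba and Smad7 0.91, and Inhba and Gdf15 0.15.

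The wider pathway was read from 123 other genes in 9 lists, of which 93 passed the filter. Between the LPS gates 5 rose in LPS Fth1-high cells, 7 fell and 81 did not pass the test, with a median of -0.18 beside 0.04 over all genes. In LPS Fth1-low against untreated cells 4 rose, 3 fell and 86 did not pass (median 0.05 beside -0.05). In LPS Fth1-high against untreated cells 16 rose, 20 fell and 57 did not pass (median -0.13 beside 0.03). These shares, 5.38% and 7.53%, 4.30% and 3.23%, and 17.2% and 21.5%, stand against the shares of all genes given above. Leaving out 1 library changed several counts by more than 1.5 times. The 5 that rose between the LPS gates became 2 without replicate 1 of LPS Fth1-low or replicate 2 of LPS Fth1-high, and 3 without replicate 2 of LPS Fth1-low or replicate 3 of LPS Fth1-high. For LPS Fth1-low against untreated cells the 4 became 2 without untreated replicate 2, and the 3 became 0 without either untreated library and 1 without LPS Fth1-low replicate 1. For LPS Fth1-high against untreated cells the 16 became 10 without LPS Fth1-high replicate 3, and the 20 became 13 and 10 without untreated replicates 1 and 2 and 12 and 13 without LPS Fth1-high replicates 2 and 3.

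Of the other ligands, 8 of 23 passed the filter and 0 were called by edgeR in any comparison. At an unadjusted p below 0.05 there was 1 in each comparison, DESeq2 called 0, 1 and 1 (Gdf11, at 0 to 6.70 CPM), and limma-voom called 0 throughout. The most abundant were Gdf3, at 0 to 15.8 CPM, and Bmp4, at 0.122 to 15.1 CPM. Without LPS Fth1-high replicate 1, where it had 6.04 CPM against 0.122 and 0.247 CPM in the other two, edgeR called Bmp4 lower in LPS Fth1-high cells, by -5.07 between the LPS gates and by -3.42 against untreated cells. It was called lower against untreated cells also when LPS Fth1-low replicate 1 was left out as well. Of the other receptors and co-receptors 8 of 13 were tested, and between the LPS gates and between LPS Fth1-low and untreated cells 0 were called by edgeR, DESeq2 or limma-voom, with 0 at an unadjusted p below 0.05. Tgfbr3, the co-receptor betaglycan, fell from 19.9 and 25.6 CPM in untreated to 1.73, 0 and 1.17 CPM in LPS Fth1-high cells (-4.61 ± 0.97, edgeR adjusted p = 0.012). Without untreated replicate 2 or LPS Fth1-high replicate 3 its adjusted p was up to 0.076 and the call was lost. Tgfbr3 was the 1 gene of this list that edgeR called against untreated cells (12.5%, near the 11.9% of all genes that fell). The type I receptor Acvrl1 and the co-receptor Eng, at 40.2 to 155 and 28.7 to 69.5 CPM, were called in no comparison.

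Proteins that store and release latent TGF-beta included several that fell in LPS Fth1-high cells. Of 10 tested, 4 fell and 1 rose against untreated cells (40% and 10%, where 11.9% and 12.4% of all genes were called), and 2 fell and none rose between the LPS gates (20%, where 4.57% of all genes fell). In LPS Fth1-low against untreated cells 1 fell (10%, where 0.629% of all genes fell). Thbs1, thrombospondin 1, which can activate latent TGF-beta, had 1765 and 3371 CPM in untreated, 3181 and 2141 CPM in LPS Fth1-low and 705, 290.0 and 273 CPM in LPS Fth1-high cells. It was 6.29-fold lower in LPS Fth1-high than in LPS Fth1-low cells (-2.65 ± 0.46, edgeR adjusted p = 0.0084, but 0.058 without LPS Fth1-low replicate 1). Nrros, which tethers latent TGF-beta on myeloid cells, had 439 and 510.4, then 452 and 415, then 224, 195 and 219 CPM in the same order. Both LPS Fth1-low libraries thus lay at about the untreated level and all LPS Fth1-high libraries below them (-1.02 ± 0.19 between the LPS gates, edgeR adjusted p = 0.010, but 0.058 without LPS Fth1-high replicate 2). Ltbp4, a latent TGF-beta binding protein, fell already in LPS Fth1-low cells, from 24.8 and 23.9 CPM to 6.70 and 3.96 CPM (-2.44 ± 0.37, edgeR adjusted p = 0.0056), and was at 2.45 to 3.39 CPM in LPS Fth1-high cells (-3.05 ± 0.28 against untreated, adjusted p = 5.7e-05). The first of these Ltbp4 calls was lost without untreated replicate 1 or 2 or LPS Fth1-low replicate 2 (adjusted p up to 0.062).

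Of the extracellular inhibitors 6 of 12 were tested. Fst, follistatin, which binds activin, was at 0.125 and 0 CPM in untreated, 3.35 and 1.34 CPM in LPS Fth1-low and 0.664, 1.06 and 1.63 CPM in LPS Fth1-high cells (3.73 ± 1.06 for the last against the first, edgeR adjusted p = 0.030), a call lost without either untreated library or LPS Fth1-high replicate 2 or 3 (up to 0.132). The mean was thus higher in LPS Fth1-low than in LPS Fth1-high cells (2.34 against 1.12 CPM). That mean rested on LPS Fth1-low replicate 1, whose 3.35 CPM were 2 counts, while replicate 2 lay within the LPS Fth1-high range. Neither the difference between the LPS gates nor that of LPS Fth1-low from untreated cells was called (-0.70 and 4.42 on the log2 scale, edgeR adjusted p = 0.733 and 0.096). The untreated libraries held 3 Fst counts in all against 82 in LPS Fth1-high cells, a ratio of 14.0 per library size (exact 95% interval 4.62 to 69.1, counting error only). Bambi, a decoy receptor with no kinase, fell from 34.1 and 34.3 CPM in untreated to 13.5, 12.6 and 14.2 CPM in LPS Fth1-high cells (-1.35 ± 0.18, edgeR adjusted p = 5.4e-04), with 20.1 and 22.8 CPM in LPS Fth1-low cells between. Between the LPS gates, and between LPS Fth1-low and untreated cells, edgeR called 0 of the 6, with 1 and 3 at an unadjusted p below 0.05. DESeq2 called 0 and 1 (Fst) there, and limma-voom 0. In LPS Fth1-high against untreated cells 1 rose and 1 fell (16.7% each, where 12.4% and 11.9% of all genes were called).

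Among the other Smads, 5 of 6 were tested and edgeR called 0 between the LPS gates or between LPS Fth1-low and untreated cells. At an unadjusted p below 0.05 there were 2 and 0, DESeq2 called 1 (Smad6) and 0, and limma-voom called 0. Against untreated cells the common partner Smad4 (-0.71 ± 0.22, edgeR adjusted p = 0.040) and the BMP-regulated Smad5 (-0.64 ± 0.20, 0.039) fell in LPS Fth1-high cells, and the inhibitory Smad6 rose (1.27 ± 0.40, 0.047). Smad4 and Smad5 lost their call without any 1 of the untreated or LPS Fth1-high libraries (adjusted p up to 0.305), and Smad6 without any 1 library but untreated replicate 1 (up to 0.179). Of the 5 Smads, 20% thus rose and 40% fell there, where 12.4% and 11.9% of all genes were called. With 5 genes tested, nothing is read from these shares. Smad2, the partner of Smad3, was at 57.5 to 80.1 CPM and was not called.

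Of 21 regulators inside the cell that were tested, 2 rose and 2 fell between the LPS gates (9.52% each, where 3.68% and 4.57% of all genes were called). In LPS Fth1-low against untreated cells 1 rose and 1 fell (4.76% each, where 2.99% and 0.629% of all genes were called). In LPS Fth1-high against untreated cells 7 rose and 3 fell (33.3% and 14.3%, where 12.4% and 11.9% of all genes were called). Zfyve9, also known as SARA, which brings Smad2 and Smad3 to the receptor, had 98.8 and 136 CPM in untreated, 43.5 and 57.4 CPM in LPS Fth1-low and 12.01, 10.6 and 9.72 CPM in LPS Fth1-high cells. It fell at each step, by -2.28 ± 0.23 between the LPS gates (edgeR adjusted p = 4.9e-04), by -1.16 ± 0.25 in LPS Fth1-low against untreated cells (0.033) and by -3.44 ± 0.22 in LPS Fth1-high against untreated cells (8.3e-06). The middle call was lost without any 1 library but LPS Fth1-high replicate 1 (up to 0.270). Ski, a repressor of Smad-driven transcription, rose from 112 and 132 CPM in LPS Fth1-low to 345, 252 and 323 CPM in LPS Fth1-high cells (1.31 ± 0.24, edgeR adjusted p = 0.0092, but 0.059 without LPS Fth1-low replicate 1), with 75.2 and 99.6 CPM in untreated cells. Ldlrad4, which keeps Smads from the receptor, also rose between the LPS gates (1.17 ± 0.28, edgeR adjusted p = 0.035), a call lost without any 1 library but LPS Fth1-low replicate 1 (up to 0.421). Its exons overlap Fam210a on the opposite strand, and the strand setting of the counting is not given. The same limit holds for Bmp4, which overlaps Gm15217, and for Eng, which overlaps Fpgs. Dab2, an adaptor of receptor traffic, rose from 3.21 and 1.58 CPM in untreated to 58.6 and 25.8 CPM in LPS Fth1-low (3.85 ± 0.49, edgeR adjusted p = 0.0022) and to 58.6, 84.7 and 97.4 CPM in LPS Fth1-high cells (4.99 ± 0.46, 7.1e-05). Pmepa1, a target that dampens Smad signalling, was outside the naming rule and was picked with its values known. It had 1.79 and 0.559, then 0 and 7.30, then 14.5, 24.3 and 25.5 CPM, and was called in LPS Fth1-high against untreated cells (4.08 ± 0.64, edgeR adjusted p = 0.0017).

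**Figure D3:**
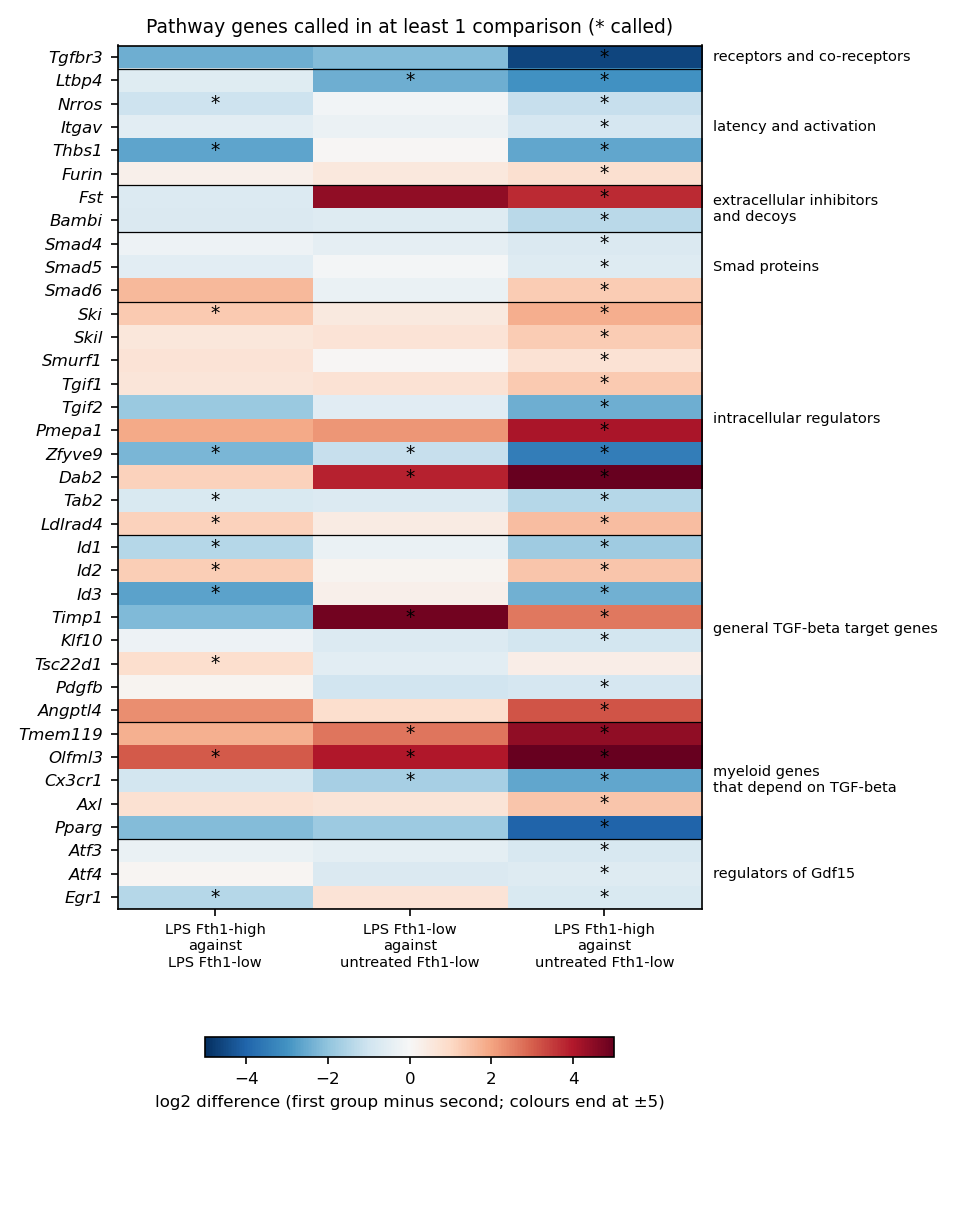
Log2 differences (colour, red for higher in the group named first) of the 37 pathway genes called in at least 1 of the 3 comparisons, grouped by list, with a star where the gene was called. Zfyve9 and Olfml3 carry a star in all 3 columns, and most stars stand in the column of LPS Fth1-high against untreated cells.

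Of 21 general target genes tested, 2 rose and 2 fell between the LPS gates (9.52% each, where 3.68% and 4.57% of all genes were called). In LPS Fth1-low against untreated cells 1 rose (4.76%, where 2.99% of all genes rose). In LPS Fth1-high against untreated cells 3 rose and 4 fell (14.3% and 19.0%), near the 12.4% and 11.9% of all genes. The Id genes, inhibitors of helix-loop-helix factors that answer BMP and TGF-beta signals, split. Id3 had 26.2 and 22.2 CPM in untreated, 43.5 and 21.4 CPM in LPS Fth1-low and 4.98, 3.54 and 5.30 CPM in LPS Fth1-high cells (-2.66 ± 0.33 between the LPS gates, edgeR adjusted p = 0.0015). Id1 fell too, from 13.4 and 22.1 to 7.43, 6.26 and 7.67 CPM (-1.44 ± 0.25, edgeR adjusted p = 0.0084, but 0.303 without LPS Fth1-low replicate 2). Id2 rose, from 97.1 and 156 to 266, 369 and 291 CPM (1.25 ± 0.26, edgeR adjusted p = 0.017, but up to 0.071 without replicate 1 of LPS Fth1-low or replicate 2 of LPS Fth1-high). Timp1, an inhibitor of matrix proteases, rose in LPS Fth1-low against untreated cells, from 0.583 and 0.373 to 21.8 and 9.57 CPM (4.84 ± 0.78, edgeR adjusted p = 0.0088), a call lost without either untreated library (up to 0.086). It was at 1.39, 2.93 and 4.88 CPM in LPS Fth1-high cells, below both LPS Fth1-low libraries and above both untreated ones, and the difference between the LPS gates was not called (-2.21, edgeR adjusted p = 0.057).

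A further 2 genes of these lists, a target and a matrix gene of TGF-beta in stromal cells, followed libraries more than groups; both are outside the naming rule and were picked with their values known. Ccn2, connective tissue growth factor, had 10.0 and 8.58 CPM in untreated, 335 and 21.1 CPM in LPS Fth1-low and 124, 8.41 and 6.08 CPM in LPS Fth1-high cells. Ltbp2, a matrix protein, had 5.83 and 2.42, then 104 and 5.30, then 30.6, 4.67 and 5.05 CPM in the same order. Both were highest in LPS Fth1-low replicate 1 and next in LPS Fth1-high replicate 1, and neither was called in any comparison (edgeR adjusted p 0.463 to 0.646). The summed level of the 6 fibroblast markers had the same 2 libraries on top, with 27.9 and 5.87 CPM in untreated, 127 and 20.0 CPM in LPS Fth1-low and 57.2, 7.40 and 24.4 CPM in LPS Fth1-high cells. Col1a1 led it at 80.4 and 24.9 CPM in those 2 libraries, and Col1a2 had the same order (33.5 and 14.9 CPM). Col3a1 was highest in LPS Fth1-high replicate 1 (13.3 CPM) and next in LPS Fth1-low replicate 1 (10.0 CPM, 6 counts). Dcn and Pdgfra were highest in untreated replicate 1 (3.04 and 3.96 CPM) and had 1 count each in LPS Fth1-low replicate 1. Lum, the single marker at 0 in any library, was at 0 in 3 and highest in LPS Fth1-low replicate 2 (0.257 CPM). The 2 libraries on top are called rich in fibroblast markers below by the sum only. Of these markers 4, Col1a1, Col1a2, Col3a1 and Dcn, are also on the pathway lists. Their part in the levels of Ccn2 and Ltbp2 was not tested. With both libraries left out, an alternative chosen after seeing the data, 3 rather than 5 pathway genes rose between the LPS gates and 9 rather than 7 fell.

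**Figure D4:**
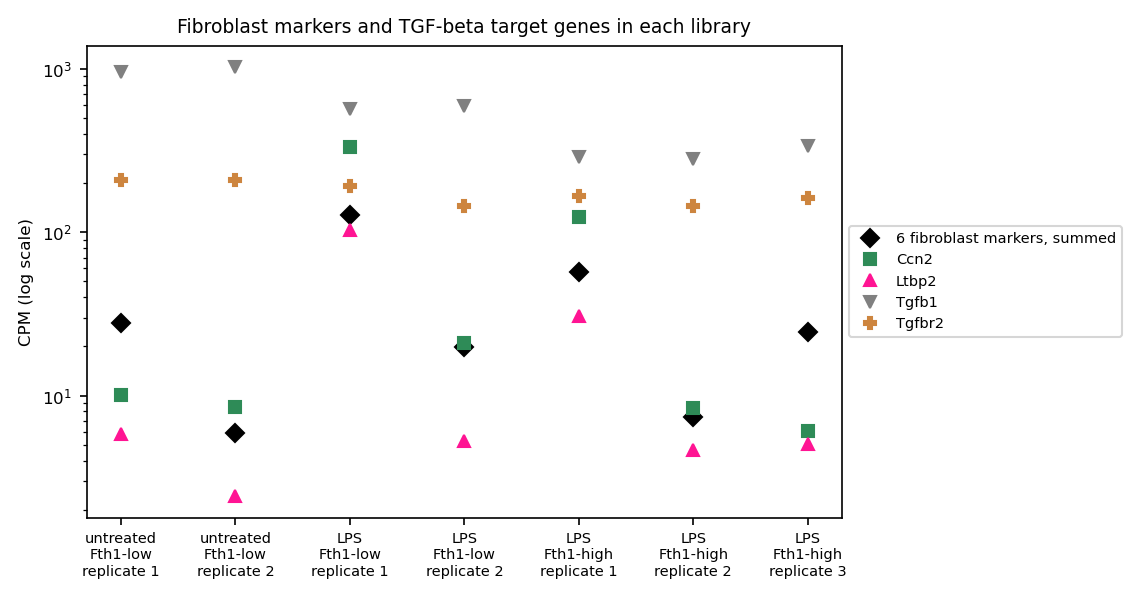
CPM on a log axis of Ccn2, Ltbp2 and the 6 fibroblast markers, summed, in each of the 7 libraries, with Tgfb1 and Tgfbr2 for reference. Ccn2, Ltbp2 and the marker sum are all highest in LPS Fth1-low replicate 1 and next in LPS Fth1-high replicate 1. In the latter Tgfb1 and Tgfbr2 lie near the replicates of their group. In LPS Fth1-low replicates 1 and 2 Tgfb1 had 568 and 594 CPM and Tgfbr2 193 and 145 CPM. Not drawn are Inhba (20.1 and 42.4), Gdf15 (0 and 2.31), Tgfbr1 (132 and 225) and Tgfbi (1550.2 and 3574 CPM). These stood farther apart between the same 2 libraries.

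Of 10 myeloid genes known in mice to need TGF-beta, most of them from microglia, 9 were tested. Between the LPS gates 1 rose and 0 fell (11.1%, where 3.68% of all genes rose). In LPS Fth1-low against untreated cells 2 rose and 1 fell (22.2% and 11.1%, where 2.99% and 0.629% of all genes were called). In LPS Fth1-high against untreated cells 3 rose and 2 fell (33.3% and 22.2%, where 12.4% and 11.9% of all genes were called). Olfml3 had 0.958 and 0.0932 CPM in untreated, 3.35 and 12.2 CPM in LPS Fth1-low and 91.5, 56.5 and 118 CPM in LPS Fth1-high cells. It rose between the LPS gates (3.06 ± 0.55, edgeR adjusted p = 0.011), in LPS Fth1-low against untreated cells (4.02 ± 0.68, 0.013) and in LPS Fth1-high against untreated cells (7.09 ± 0.66, 9.9e-05). Without LPS Fth1-low replicate 2 the first 2 of these had an adjusted p of 0.064 and 0.593. Tmem119, a membrane protein of microglia, had 3.66 and 1.31, then 5.02 and 20.8, then 38.4, 74.0 and 59.8 CPM, and rose in LPS Fth1-high against untreated cells (4.43 ± 0.54, edgeR adjusted p = 4.8e-04). Its rise in LPS Fth1-low cells (2.67 ± 0.56, edgeR adjusted p = 0.037) was lost without untreated replicate 2, replicate 2 of LPS Fth1-low or replicate 3 of LPS Fth1-high (up to 0.753). Cx3cr1, the fractalkine receptor, went the other way, from 639 and 629.7 CPM in untreated to 114 and 272 CPM in LPS Fth1-low and 105, 88.5 and 121 CPM in LPS Fth1-high cells. It fell in LPS Fth1-high against untreated cells (-2.60 ± 0.32, edgeR adjusted p = 3.3e-04) and in LPS Fth1-low against untreated cells (-1.67 ± 0.36, 0.035), the latter lost without either untreated library or LPS Fth1-low replicate 1 (up to 0.165).

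All 5 listed factors known to drive Gdf15 were tested. Egr1, an immediate early factor, fell from 305 and 337 CPM in LPS Fth1-low to 111, 92.6 and 152 CPM in LPS Fth1-high cells (-1.44 ± 0.23, edgeR adjusted p = 0.0054), with 204 and 202 CPM in untreated cells. Against untreated cells Egr1 (-0.78 ± 0.23, edgeR adjusted p = 0.035), Atf4 (-0.63 ± 0.18, 0.029) and Atf3 (-0.80 ± 0.24, 0.036), both factors of the stress response, fell in LPS Fth1-high cells. Egr1 lost this call without either untreated library or LPS Fth1-high replicate 1 or 2 (up to 0.147), Atf3 without either untreated library or LPS Fth1-high replicate 2 or 3 (up to 0.197), and Atf4 without any 1 of these 5 libraries (up to 0.159). Of the 5, 0 rose and 3 fell in LPS Fth1-high against untreated cells (0% and 60%, where 12.4% and 11.9% of all genes were called). Between the LPS gates 0 rose and 1 fell (20%, where 4.57% of all genes fell). With 5 genes tested, nothing is read from these counts. In LPS Fth1-low against untreated cells edgeR called 0 of the 5, with 2 at an unadjusted p below 0.05, DESeq2 called 1 and limma-voom 0. Gdf15 itself was called in no comparison.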

How the data were processed

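The deposited values are raw counts of reads per gene and library. Per the submitters' processing notes they came from a pipeline that names DRAGEN, DESeq2 and the build mm10; versions, annotation and strand setting were not given there. Polyadenylated RNA was prepared with a stranded kit, per the labels' protocols.

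The 9 genes, the pathway and marker lists and the tests were chosen with earlier results of these data known. The fit used edgeR 4.0.16 (R 4.3.3): filterByExpr (13665 of 26130 genes), TMM scaling, and 1 robust quasi-likelihood fit to all 7 libraries. The 3 pairwise differences were tested two-sided, with Benjamini-Hochberg adjustment over all tested genes and a threshold of 0.05. SE is the log2 difference over the square root of F. CPM uses TMM-scaled library sizes, and correlations use log2 CPM with a prior count of 2. All p-values measure only how libraries vary, which may be technical, since the labels do not say that replicates were separate mice. Replicates differed from each other by more than sampling noise. The fit was tested on simulated data.

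Named were the 9 genes, in each comparison and list up to 3 called genes by smallest adjusted p or else its 2 most abundant genes, and for each of the 9 the 3 genes with the highest correlation; only some are printed, and exceptions are stated where they stand. Gene positions are 1-based, of GENCODE vM21 on GRCm38 (mm10), which gave one for 96.2% of symbols; promoter windows are from RefSeq on GRCm38.p6. No exon of the 9 genes overlaps another gene of the table. Smad7 had no promoter window. Alternatives were other scalings, no filter, DESeq2 1.42.0, limma-voom (limma 3.58.1), fits of the 2 groups alone, a replicate block, thinning to 637787 counts, ribosomal RNA left out, and leaving out libraries.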

Additional observations from a re-analysis of the deposited data

How the results depend on the processing

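Counts of pathway genes called were recomputed under 17 alternatives, and no pathway gene named by the rule and called by edgeR changed sign. Pmepa1, outside the rule, was not followed under the alternatives. Between the LPS gates, DESeq2 called 10 higher and 11 lower against 5 and 7, leaving out both libraries rich in fibroblast markers gave 3 and 9, and leaving out 1 library gave 2 to 5 and 5 to 8. For LPS Fth1-low against untreated cells, the 4 higher became 8 with DESeq2, 2 with no filter, 1 with limma-voom, 8 with the replicate block and 2 after thinning, and 2 to 4 with 1 library left out. The 3 lower became 1 without both marker-rich libraries and 0 to 3 with 1 library left out. For LPS Fth1-high against untreated cells, leaving out 1 library gave 10 to 17 higher against 16 and 10 to 20 lower against 20, and thinning gave 12 lower. The causes were not tested, except that thinning and leaving out libraries test fewer counts or samples. With no filter, calls were lost for Olfml3 and Tmem119 in LPS Fth1-low and for Atf4, Smad5 and Tgfbr3 in LPS Fth1-high against untreated cells. Fits of the 2 groups alone lost Ldlrad4 between the LPS gates, Zfyve9 in LPS Fth1-low and Smad6 in LPS Fth1-high against untreated cells. In the last of these comparisons DESeq2 also lost Smad5, and scaling by upper quartiles lost Smad6. The replicate block gave 5 higher and 9 lower, 8 and 4, and 17 and 14 in the 3 comparisons. Without a call under the block were Tgfbr3, Smad4, Smad5, Atf3 and Atf4 in LPS Fth1-high against untreated cells, Ldlrad4 between the LPS gates and Tmem119 in LPS Fth1-low against untreated cells. Limma-voom gave no call for Olfml3 between the LPS gates, or for Olfml3, Timp1, Tmem119 and Zfyve9 in LPS Fth1-low against untreated cells. Thinning removed the calls of Id1 and Ldlrad4 between the LPS gates, and of Ltbp4, Olfml3, Tmem119 and Zfyve9 in LPS Fth1-low against untreated cells. It also removed those of Atf4, Bambi, Id1, Smad4, Smad5 and Smad6 in LPS Fth1-high against untreated cells. Leaving out both marker-rich libraries leaves 1 LPS Fth1-low library. It lost Ski and Olfml3 between the LPS gates and Zfyve9, Olfml3 and Cx3cr1 in LPS Fth1-low against untreated cells. Smad6 and Egr1 were lost in LPS Fth1-high against untreated cells. The labels give same-numbered libraries only a number; their deviations correlated at -0.04, 0.20 and 0.20. Of the differences of the 9 genes, 399 of 422 recomputed values stayed within 1 SD of the main value and 23 moved further. This SD is that of the gene's log2 CPM within groups, pooled over the 3 groups, and not the SE of the difference. The differences of Inhba from untreated cells, where it had no count, were not among the 422. LPS Fth1-low replicate 1, with 637787 counts, limits what can be seen of scarce genes, and without its replicate the median of all genes shifted by 0.24 between the LPS gates and by -0.22 against untreated cells.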
